A study of Mus musculus with 45 samples.

Results

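The expression of 10 genes that mark bile duct cells, liver progenitors and epithelial structure was followed in mouse liver across the doses of TCDD (2,3,7,8-tetrachlorodibenzo-p-dioxin), the dioxin that activates the aryl hydrocarbon receptor (AhR). They were chosen by name: the transcription factor *Sox9*, the adhesion molecules *Epcam* and *Cdh1* (E-cadherin), the secreted proteins *Spp1* (osteopontin) and *Afp* (alpha-fetoprotein), and the keratins *Krt7*, *Krt8*, *Krt18*, *Krt19* and *Krt23*. All 10 were among the 39179 genes counted and among the 17464 genes tested, those in which some library held more than 4 reads. Female C57BL/6 mice, first dosed at about 4 weeks of age, received sesame oil alone (vehicle) or, in the same oil, 1 of 8 doses of TCDD by gavage every 4 days for 28 days, with 5 mice in each of the 9 groups and no other allele or agent. The low doses were 0.01, 0.03, 0.1 and 0.3 µg/kg and the high doses 1, 3, 10 and 30 µg/kg. The labels also describe the mice as ovariectomized, a procedure that the study's methods do not mention, and add the word daily to the dosing, which is taken here to be every 4 days as in the methods. RNA came from pieces of whole liver, so that fewer cells of a type and less RNA per cell cannot be told apart.

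Keratins form intermediate filaments in which an acidic (type I) chain pairs with a basic (type II) chain. Adult hepatocytes make a single pair, *Krt8* with *Krt18*, whereas the cholangiocytes that line bile ducts add *Krt7* and *Krt19* and also express *Sox9*, *Epcam* and *Spp1*. In chronic liver injury these biliary genes mark the ductular reaction, an expansion of duct-like and progenitor cells. *Cdh1* joins epithelial cells at adherens junctions, and *Afp* is made by the fetal liver and is shut down after birth.

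The libraries held 11767284 to 56509899 reads on genes (median 17225047), and levels are given as normalized counts (CPM, each library scaled to a common total and by the trimmed mean of M-values, TMM). The AhR target *Cyp1a1* rose from 7.50 ± 6.32 CPM in vehicle mice to 7630 ± 1190 CPM at 30 µg/kg (SD, n = 5), and 6 of 6 AhR targets passed the test there (adjusted p below 0.05, edgeR quasi-likelihood test against the vehicle with Benjamini-Hochberg adjustment over all 17464 genes). Each mouse resembled its own group about equally, with a median correlation between 0.977 and 0.989. At 30 µg/kg, markers of other cells also moved. Of the macrophage markers 8 of 14 were higher, of the stellate cell and fibroblast markers 6 of 10, of the endothelial markers 6 of 8, of the lymphocyte markers 3 of 8 and of the proliferation markers 5 of 6, while 6 of 12 hepatocyte markers were lower (3 of 12 when libraries were scaled by their size alone). Of all genes, 15.5% were higher and 14.1% lower there. Without TCDD 30 µg/kg replicate 2, 5 macrophage and 2 proliferation markers were higher, and without vehicle replicate 2, 3 or 4 the proliferation markers that passed numbered 3.

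The 10 genes covered a wide range of levels. Compared per length of exon in vehicle mice, *Krt18* stood at 91.7 ± 14.2 CPM per kb (SD, n = 5), *Krt8* at 39.3 ± 5.95 and *Spp1* at 35.3 ± 5.79 CPM per kb. *Cdh1* followed at 5.65 ± 0.65 and *Krt23* at 2.30 ± 0.114 CPM per kb. *Sox9* at 0.527 ± 0.202, *Epcam* at 0.522 ± 0.126, *Krt19* at 0.394 ± 0.108, *Afp* at 0.278 ± 0.0637 and *Krt7* at 0.0891 ± 0.0188 CPM per kb closed the order. *Krt8* and *Spp1* overlapped within 1 SD, as did *Sox9*, *Epcam* and *Krt19*, and *Krt19* and *Afp*. The length was that of all annotated exons merged, 7049 bp for *Krt7* against 1437 to 1958 bp for the other keratins. The place of *Krt7* depends on this length. Before division by it, *Krt7* was at 0.628 ± 0.133 CPM and *Krt19* at 0.731 ± 0.2 CPM in vehicle mice. Over the 45 libraries, between 2 and 39 reads per library were counted on *Krt7*, between 4 and 50 on *Krt19*, between 4 and 65 on *Afp* and between 8 and 58 on *Epcam*. *Cftr*, a chloride channel of cholangiocytes used as a further check, was also detected, at 0.168 CPM in vehicle mice.

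All 10 are protein-coding genes in the mouse build GRCm38, and reads were counted over their exons. On chromosome 15 lie *Krt7* (ENSMUSG00000023039, chr15:101411043-101430313, plus strand), *Krt8* (ENSMUSG00000049382, chr15:101996698-102004482, minus strand) and *Krt18* (ENSMUSG00000023043, chr15:102028180-102032027, plus strand). On chromosome 11 are *Krt23* (ENSMUSG00000006777, chr11:99477974-99493137, minus strand), *Krt19* (ENSMUSG00000020911, chr11:100140810-100148665, minus strand) and *Sox9* (ENSMUSG00000000567, chr11:112782224-112787760, plus strand). *Afp* (ENSMUSG00000054932, chr5:90490737-90508907) and *Spp1* (ENSMUSG00000029304, chr5:104435118-104441050) lie on the plus strand of chromosome 5, *Cdh1* (ENSMUSG00000000303, chr8:106603351-106670246) on that of chromosome 8 and *Epcam* (ENSMUSG00000045394, chr17:87635979-87651129) on that of chromosome 17. In the annotation used here, exons of *Spp1* overlap a predicted gene over 309 bp, and *Krt8* and *Krt7* overlap genes on the opposite strand over 101 and 77 bp. None of these overlapping genes was counted separately, and reads from both partners could not be told apart there.

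The bound AhR and its partner recognise DNA at a core of GCGTG, which reads CACGC on the other strand. Promoter windows of 250 bases that end just before the RefSeq transcription start (GRCm38.p6) were at hand for 7 of the 10 genes. The windows shown belong to the keratin with the largest change, to the keratin with the most RNA and to the fetal gene that rose only at the top dose. They are those of *Krt23* (chr11:99493121-99493370, minus strand), *Krt18* (chr15:102027966-102028215, plus strand) and *Afp* (chr5:90490464-90490713, plus strand), each printed 5′ to 3′ along its gene with every core motif in capitals.
Krt23: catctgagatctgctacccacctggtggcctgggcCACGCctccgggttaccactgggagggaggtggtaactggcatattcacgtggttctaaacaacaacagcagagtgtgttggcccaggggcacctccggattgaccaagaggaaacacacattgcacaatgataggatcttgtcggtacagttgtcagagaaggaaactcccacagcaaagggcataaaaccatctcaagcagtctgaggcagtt
Krt18: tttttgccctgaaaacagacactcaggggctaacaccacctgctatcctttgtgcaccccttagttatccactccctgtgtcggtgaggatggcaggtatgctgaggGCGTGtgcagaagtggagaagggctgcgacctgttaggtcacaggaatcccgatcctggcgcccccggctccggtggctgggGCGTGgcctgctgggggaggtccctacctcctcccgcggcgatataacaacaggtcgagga
Afp: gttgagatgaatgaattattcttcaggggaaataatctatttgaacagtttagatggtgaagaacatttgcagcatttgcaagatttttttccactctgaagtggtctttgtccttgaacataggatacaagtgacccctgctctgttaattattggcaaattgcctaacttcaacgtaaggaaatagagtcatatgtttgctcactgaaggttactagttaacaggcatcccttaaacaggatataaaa
The *Krt23* window held 1 core, CACGC, starting 215 bases before the start site. The *Krt18* window held 2, both GCGTG, at 143 and 61 bases before it. No core was found in the *Afp* window, nor in the windows of *Spp1*, *Krt7*, *Krt8* and *Epcam*, which are not shown. Of the 8 windows of these 7 genes, only those of *Krt23* and *Krt18* held a core. Of 32851 promoter windows of this length, 28.2% held at least 1 core on either strand and 8.63% held at least 2. A match of letters is a description of the sequence and not a measured binding site.

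Of the 10 genes, 3 rose at 30 µg/kg, where 15.5% of all genes tested were higher: *Krt23*, *Cdh1* and *Afp*. *Krt23* was the only one of them past the threshold at 10 µg/kg, where 8.47% of all genes were higher. None of the 10 was lower at any dose, against 14.1% of all genes lower at 30 µg/kg and 7.47% at 10 µg/kg. *Krt23* and *Cdh1* were higher by a fold change of at least 2 at the top dose, as were 8.03% of all genes. Tested for a difference at any dose, 3 of 10 genes varied, namely *Krt23* (adjusted p = 8.416e-06), *Cdh1* (adjusted p = 0.002123) and *Afp* (adjusted p = 0.006333), against 28.8% of all genes. At 0.01 to 3 µg/kg, 0 of the 10 genes passed in edgeR and in DESeq2. The genes with an unadjusted p under 0.05 there were *Cdh1*, *Spp1* and *Afp* at 0.01 µg/kg and *Spp1* at 0.1 and 0.3 µg/kg. From the lowest of these doses to 3 µg/kg, the share of all genes that passed in either direction was 0%, 0.0573%, 0.0229%, 0.464%, 1.76% and 7.54%. The plot of all 10 genes by dose shows every mouse.

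**Figure D1:**
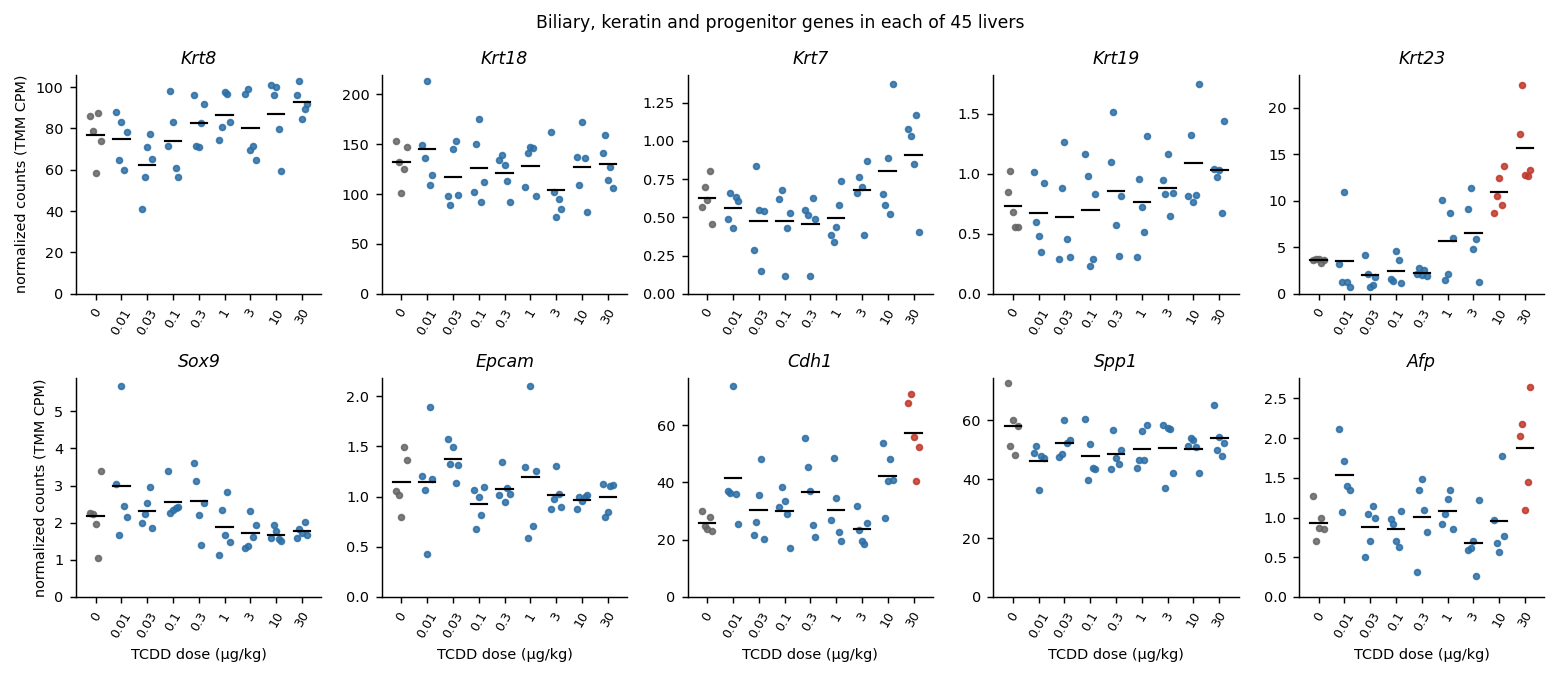
Normalized counts (TMM-scaled CPM, y axis from 0) of the 10 genes in each of 45 livers against TCDD dose (µg/kg, x axis, equally spaced groups, 0 is the vehicle). Points are single mice, black lines are means of 5 mice, and red marks the groups that passed the test against the vehicle, which are *Krt23* at 10 and 30 µg/kg and *Cdh1* and *Afp* at 30 µg/kg.

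Among the keratins only *Krt23*, an acidic keratin known as an injury-inducible keratin of bile ducts and progenitors, passed the test. Vehicle mice had 3.68, 3.69, 3.70, 3.28 and 3.64 CPM. At 10 µg/kg the mice had 8.73, 10.5, 12.5, 9.53 and 13.7 CPM, and at 30 µg/kg 17.2, 22.5, 12.8, 12.7 and 13.3 CPM. Every mouse of both groups stood above every vehicle mouse, as was the case for 8.10% of all genes at 10 µg/kg and 10.3% at 30 µg/kg. *Krt23* was 3.05-fold higher at 10 µg/kg (log2 fold change 1.61, SE 0.51, adjusted p = 0.02506) and 4.36-fold higher at 30 µg/kg (log2 fold change 2.12, SE 0.51, adjusted p = 0.001427). The exact permutation test of 5 mice against 5, two-sided, gave p = 0.007937 at both doses, the smallest it can give. At 10 µg/kg the adjusted p rose to 0.052 without vehicle replicate 4 and to 0.05893 without TCDD 10 µg/kg replicate 5, and the log2 fold changes were then 1.58 and 1.5.

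The lower doses did not lead up to this level evenly. At 1 µg/kg *Krt23* was at 10.1, 1.46, 2.17, 8.67 and 5.97 CPM, and at 3 µg/kg at 9.13, 11.4, 4.87, 5.86 and 1.25 CPM. Some mice of these groups therefore reached the level of the 10 µg/kg group while others stayed below every vehicle mouse. The coefficient of variation was 4.96% in vehicle mice, 123%, 69.7%, 60.9% and 16.8% in the groups from 0.01 to 0.3 µg/kg, and 67.3%, 60.2%, 18.7% and 27% in those from 1 to 30 µg/kg. The vehicle mice had 52 to 72 reads each on *Krt23*, and counting so few reads alone usually gives a spread above 4.96%. Differences in spread between groups were not tested. At 0.3 µg/kg all mice, from 1.95 to 2.81 CPM, lay below all vehicle mice, as did 0.899% of all genes, and the exact two-sided permutation test gave p = 0.007937, but the edgeR test over all genes did not pass (log2 fold change -0.66, SE 0.55, adjusted p = 0.7046). At 0.01 µg/kg replicate 3 had 11 CPM and the other mice between 0.71 and 3.21 CPM.

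*Krt8* and *Krt18*, the keratin pair of the hepatocyte, did not pass at any dose. *Krt8*, the basic chain, was at 85.9, 79, 58.4, 87.3 and 74.1 CPM in vehicle mice and at 96.0, 103, 84.7, 89.2 and 91.8 CPM at 30 µg/kg, where 4 of 5 mice stood above every vehicle mouse. The log2 fold change was 0.27 (95% interval -0.05 to 0.59, adjusted p = 0.2013), and the exact permutation test gave p = 0.02381 before any adjustment. Scaled by library size alone, *Krt8* passed at 30 µg/kg (log2 fold change 0.489, adjusted p = 0.01927), while the median log2 fold change of all genes moved from 0.019 to 0.232 and the calls from 2700 higher and 2467 lower to 4996 and 1222. *Krt18*, the acidic chain, was at 153, 132, 101, 125 and 147 CPM in vehicle mice and at 141, 159, 114, 127 and 106 CPM at 30 µg/kg. These groups overlapped throughout, with a log2 fold change of -0.02 (95% interval -0.43 to 0.38) that turned to 0.196 without TMM scaling.

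The ratio of the pair within a mouse was computed after the values of both genes had been seen. *Krt8* per kb over *Krt18* per kb was 0.431 ± 0.0517 in vehicle mice and 0.584 ± 0.107, 0.514 ± 0.0929 and 0.533 ± 0.0622 in the 3, 10 and 30 µg/kg groups (SD, n = 5 each). Exact permutation tests against the vehicle, two-sided and not adjusted for the 8 doses, gave p = 0.01587, 0.07937 and 0.02381 in the same order. The ranges overlapped at each of these doses, from 0.371 to 0.512 in vehicle mice and from 0.473 to 0.634 at 30 µg/kg.

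The biliary keratins *Krt7* and *Krt19* had few reads and wide intervals. *Krt7*, the basic chain, was at 0.566, 0.70, 0.616, 0.805 and 0.455 CPM in vehicle mice and at 1.08, 1.03, 0.849, 1.17 and 0.401 CPM at 30 µg/kg. There 4 of 5 treated mice stood above all vehicle mice and the other below all of them, with a log2 fold change of 0.55 (95% interval -0.15 to 1.26, adjusted p = 0.24). *Krt19*, its acidic partner, was at 0.849, 1.02, 0.678, 0.557 and 0.556 CPM in vehicle mice and at 1.04, 0.973, 1.03, 0.669 and 1.44 CPM at 30 µg/kg, and the groups overlapped. Its log2 fold change was 0.48 (95% interval -0.31 to 1.28, adjusted p = 0.3856). Neither difference was detectable at this depth, and the intervals still hold a doubling of both genes.

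Of the adhesion molecules, *Cdh1*, which in mouse liver is found in bile ducts and in the hepatocytes near the portal tracts, rose at 30 µg/kg. The vehicle mice had 29.9, 24.9, 23.7, 28.0 and 22.9 CPM and the 30 µg/kg mice 67.8, 70.7, 56, 40.4 and 52.2 CPM. All 5 treated mice lay above all vehicle mice. *Cdh1* was 2.22-fold higher (log2 fold change 1.15, SE 0.27, 95% interval 0.61 to 1.69, adjusted p = 0.0008959, exact permutation p = 0.007937).

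The rise of *Cdh1* was not even over the doses. The group means were 25.9 CPM in vehicle mice, then 41.7, 30.3, 29.9, 36.8, 30.4, 23.7, 42.2 and 57.4 CPM from 0.01 to 30 µg/kg. At 0.01 µg/kg 4 of 5 mice stood above every vehicle mouse (log2 fold change 0.69, adjusted p = 0.3806, exact permutation p = 0.02381). At 3 µg/kg the mice, from 18.4 to 31.6 CPM, spanned the vehicle range. At 10 µg/kg 4 of 5 mice stood above every vehicle mouse, with 53.8, 27.5, 40.4, 48.3 and 40.9 CPM. The log2 fold change there was 0.71 (SE 0.27, adjusted p = 0.06234, exact permutation p = 0.02381). The adjusted p fell under the threshold when only these groups were fitted (0.00425), in DESeq2 (0.04808) and without TCDD 10 µg/kg replicate 2 (0.03615). In some other settings it stayed above, up to 0.07846 in the alternative fits and up to 0.1734 with a single mouse left out.

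*Epcam*, an adhesion molecule of the biliary epithelium, gave no call. Its vehicle mice had 1.06, 1.02, 0.801, 1.49 and 1.36 CPM and its 30 µg/kg mice 1.13, 0.801, 0.849, 1.11 and 1.12 CPM, and the groups overlapped. The log2 fold change was -0.21 (95% interval -0.73 to 0.32, adjusted p = 0.5977), and 0.006 without TMM scaling. *Sox9*, the transcription factor that marks bile ducts and the hepatocytes next to them, was at 2.26, 2.23, 1.97, 1.05 and 3.39 CPM in vehicle mice and at 1.58, 1.83, 1.73, 2.01 and 1.68 CPM at 30 µg/kg, inside the vehicle range. Its log2 fold change was -0.31 (95% interval -0.86 to 0.23, adjusted p = 0.4133). The coefficient of variation of *Sox9* was 38.2% in vehicle mice and 10.8% and 9.18% in the 10 and 30 µg/kg groups. These values rest on 17 to 67, 28 to 49 and 21 to 49 reads per mouse, and the difference in spread was not tested.

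The secreted proteins are a biliary and a fetal product. *Spp1*, a matrix glycoprotein made by bile duct cells in the healthy liver, was at 72.7, 51.3, 60.3, 48.2 and 58.1 CPM in vehicle mice and at 65.4, 49.9, 54.5, 48 and 52.5 CPM at 30 µg/kg. The groups overlapped, and the log2 fold change of -0.10 (95% interval -0.36 to 0.15, adjusted p = 0.5814) became 0.112 without TMM scaling. *Spp1* thus had the narrowest interval of the 10 genes at this dose, and its group means over all 8 doses stayed between 46.3 and 54.1 CPM against 58.1 CPM in vehicle mice. The mean at 0.01 µg/kg, 46.3 ± 5.89 CPM (SD, n = 5), gave an adjusted p of 0.3816.

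*Afp* rose at the top dose from a low level. Vehicle mice had 1.27, 0.70, 0.863, 0.99 and 0.859 CPM, from 11 to 18 reads each, and the 30 µg/kg mice 2.03, 2.18, 1.10, 1.45 and 2.64 CPM, from 26 to 45 reads. Of the treated mice 4 of 5 stood above every vehicle mouse, and the groups overlapped in the fifth. The level was 1.97-fold higher (log2 fold change 0.98, SE 0.31, adjusted p = 0.01474, exact permutation p = 0.01587). Without TCDD 30 µg/kg replicate 5 the adjusted p was 0.05169. At 10 µg/kg the mean was 0.957 ± 0.485 CPM, close to the 0.937 ± 0.215 CPM of vehicle mice. At 0.01 µg/kg 4 of 5 mice also stood above the vehicle range, with 2.11, 1.07, 1.71, 1.4 and 1.34 CPM. The exact permutation test gave the same p there, 0.01587, but the gene did not pass in edgeR (log2 fold change 0.72, adjusted p = 0.4331).

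**Figure D2:**
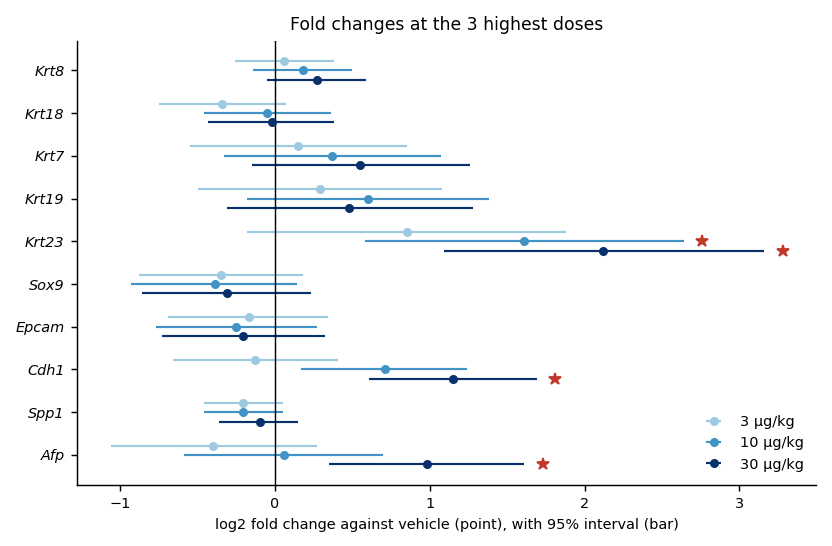
Log2 fold change against the vehicle (x axis) of the 10 genes (y axis) at 3, 10 and 30 µg/kg, as points with 95% intervals from the fit of all 45 mice. Stars mark adjusted p under 0.05. The intervals of *Krt23* at 10 and 30 µg/kg and of *Cdh1* and *Afp* at 30 µg/kg lie right of 0 and carry stars, whereas that of *Cdh1* at 10 µg/kg lies right of 0 without one.

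Neighbouring doses could not be separated for any of the 10 genes. In the 7 steps between neighbouring TCDD doses, 0 of 70 comparisons passed in edgeR and 0 in DESeq2, and the share of all genes that passed was 0%, 0.0115%, 0.0458%, 0.115%, 0.178%, 0.784% and 0.613% from the lowest step to the highest. At an unadjusted p under 0.05 there were 5. These were *Cdh1* from 3 to 10 µg/kg (log2 fold change 0.83), *Afp* from 10 to 30 µg/kg (0.93), *Krt23* from 0.3 to 1 µg/kg (1.28), *Afp* from 0.01 to 0.03 µg/kg (-0.79) and *Epcam* from 0.03 to 0.1 µg/kg (-0.54).

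Taking the dose out, a few of the genes still rose and fell together from mouse to mouse. For each gene, the deviation of log2 CPM from the mean of its dose group was compared between mice for all 45 pairs of genes, with mice permuted within groups. *Krt8* and *Krt18* deviated together (Pearson r = 0.64, Spearman rho = 0.64, permutation p = 0.00011 for both, adjusted p = 0.0025 over the 45 pairs, n = 45 mice). So did *Cdh1* and *Krt18* (r = 0.63, rho = 0.65, permutation p = 6e-05 and 7e-05, adjusted p = 0.0025). Without the 2 mice farthest from the median deviation of *Krt8* in the first pair and *Cdh1* in the second, r was 0.61 and 0.60. The other 43 pairs did not pass, among them *Krt7* with *Krt19* (r = 0.37, rho = 0.35, permutation p = 0.053 and 0.041, adjusted p = 0.27 and 0.37) and *Cdh1* with *Krt8* (r = 0.34, rho = 0.39, permutation p = 0.039 and 0.016, adjusted p = 0.27 and 0.23). Within the vehicle and the doses up to 0.3 µg/kg alone, r was 0.575 for *Krt8* with *Krt18* (permutation p adjusted to 0.2) and 0.723 for *Cdh1* with *Krt18* (adjusted to 0.013). Within groups, the correlation of each gene with the log2 read total was -0.23 for *Krt8*, -0.24 for *Krt18* and -0.18 for *Cdh1*, and its part in the pairs was not tested. Sequencing pools, which the study formed from random samples, are not given in the labels.

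**Figure D3:**
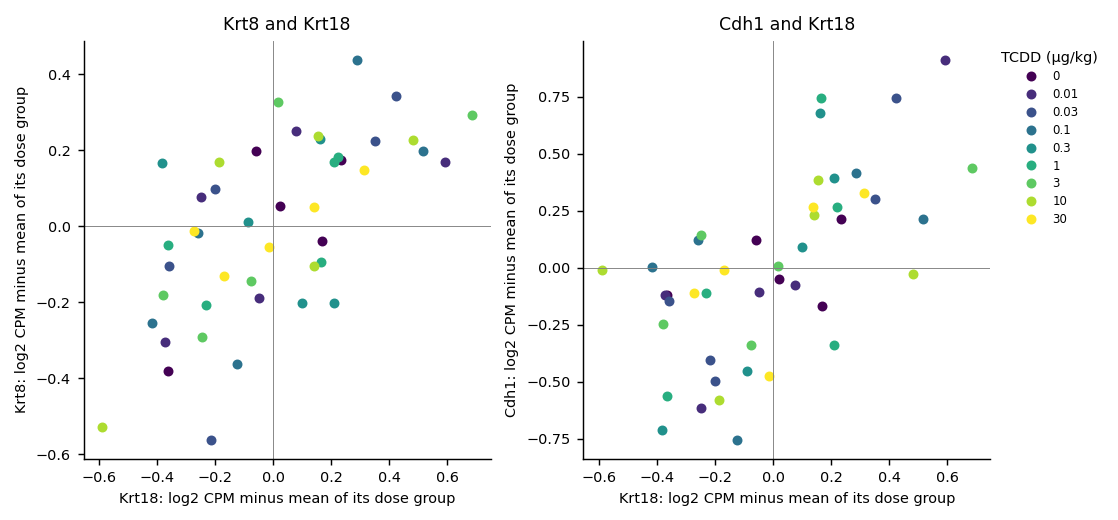
Deviation of log2 CPM from the mean of the dose group for *Krt8* (left, y axis) and *Cdh1* (right, y axis) against *Krt18* (x axes) in 45 mice, coloured by TCDD dose (µg/kg). Points of all doses lie along a rising band, with r = 0.64 for *Krt8* and r = 0.63 for *Cdh1*.

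The genes whose log2 CPM followed each of the 10 most closely over the 45 mice were looked up among 13609 genes with a mean of at least 10 reads, as a description that includes the effect of dose and of anything else the libraries share. *Krt23* was most like *Maff*, a small Maf transcription factor (r = 0.83, rho = 0.83), *Aqp4*, a water channel (r = 0.82, rho = 0.80), and *Chdh*, which oxidises choline (r = 0.81, rho = 0.76). *Krt18* was most like *Zc3h12d* (r = 0.85, rho = 0.83), *Cchcr1* (r = 0.82, rho = 0.84) and *Kat5* (r = 0.76, rho = 0.79). *Cdh1* was most like *Defb1*, a beta-defensin (r = 0.76, rho = 0.75), *Lrrc8d* (r = 0.75, rho = 0.74) and the Wnt co-receptor *Lrp5* (r = 0.73, rho = 0.75). For the remaining genes the closest were *Gramd4* for *Krt8* (r = 0.72, rho = 0.60), *Map3k1* for *Sox9* (r = 0.69, rho = 0.62), *Timp2* for *Krt19* (r = 0.69, rho = 0.71) and *Slc25a12* for *Krt7* (r = 0.67, rho = 0.57). *Epcam* was closest to *Glrx5* (r = 0.62, rho = 0.52) and *Spp1* to *Cd24a* (r = 0.55, rho = 0.52), and among the 3 genes most like *Afp* was *Asns* (r = 0.61, rho = 0.62). No member of the 10 was among the 3 closest genes of another.

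Other biliary genes were read beside the classical duct markers. Of 23 tested, 5 (21.7%) were higher and 1 (4.35%) lower at 30 µg/kg, against 15.5% and 14.1% of all genes, and 7 were higher and 0 lower without TMM scaling. The list had a median log2 fold change of 0.29 against 0.019 for all genes. *Spint1*, a membrane-bound inhibitor of serine proteases, rose 6.91-fold from 0.603 ± 0.24 to 4.16 ± 0.856 CPM (SD, n = 5, adjusted p = 1.933e-12). *St14* (matriptase), a protease that *Spint1* inhibits, rose 4.01-fold from 0.55 ± 0.184 to 2.25 ± 1.04 CPM (adjusted p = 1.426e-05). The stem cell surface marker *Prom1* (prominin-1) rose 5.50-fold from 5.34 ± 3.14 to 29 ± 12.8 CPM (adjusted p = 4.334e-05). The cholangiocyte marker *Cftr* (0.168 against 0.236 CPM, adjusted p = 0.6799) did not pass at 30 µg/kg. Among these biliary genes *Aqp1* also passed, and it is a gene of endothelium too, whose markers had a summed level of 163 to 218 CPM in vehicle mice and 194 to 322 CPM at 30 µg/kg.

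Other keratins and the proteins that act with them were read beside *Krt23*. Of 12 other epithelial keratins 4 were tested, *Krt10* fell (log2 fold change -0.63, from 2.13 ± 0.112 to 1.36 ± 0.449 CPM, adjusted p = 0.0253), and *Krt80* was higher on few reads (0.0124 against 0.183 CPM). The call of *Krt10* was lost without TMM scaling and without replicate 2, 3 or 5 of the 30 µg/kg group. Of 8 tested keratin partners 3 were higher and 1 lower (3 and 0 without TMM scaling), where 15.5% and 14.1% of all genes were. *Vim* (vimentin), the filament protein of mesenchymal cells, rose 2.12-fold from 15.3 ± 1.66 to 32.4 ± 5.71 CPM (adjusted p = 3.983e-05) and *Lmna* (lamin A/C) 1.24-fold (adjusted p = 0.0113). Beside *Vim*, the 10 stellate cell and fibroblast markers summed to 291 to 415 CPM in vehicle mice and 552 to 813 CPM at 30 µg/kg, and none of them was at 0. The part of these cells in the *Vim* result was not tested. *Sqstm1* (p62), which gathers with *Krt8* and *Krt18* in Mallory bodies, was at 245 CPM in vehicle mice and 242 CPM at 30 µg/kg (adjusted p = 0.9477).

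Cell junction genes moved in both directions around *Cdh1*. Of 20 genes of adherens and tight junctions, 4 (20%) were higher and 6 (30%) lower at 30 µg/kg, against 15.5% and 14.1% of all genes. Without TMM scaling 7 were higher and 1 lower. The median log2 fold change of the list with TMM scaling was -0.11. The tight junction claudin *Cldn14* rose 3.59-fold from 6.42 ± 1.69 to 23.1 ± 8.05 CPM (adjusted p = 2.144e-09), whereas *Cldn3* fell from 54.5 ± 4.55 to 30.6 ± 2.72 CPM (log2 fold change -0.83, adjusted p = 8.297e-06) and *Cldn1* from 41.8 ± 12.8 to 16.2 ± 3.30 CPM (log2 fold change -1.36, adjusted p = 0.02901). Of the catenins that bind the tail of E-cadherin, *Ctnna1* was higher (131 against 196 CPM in vehicle and treated mice, log2 fold change 0.58, adjusted p = 1.509e-10) and *Ctnnb1* lower (220 against 176 CPM, log2 fold change -0.32, adjusted p = 0.0006773). Of 6 desmosome genes, *Pkp3* (plakophilin 3) rose 7.91-fold from 0.701 ± 0.251 to 5.61 ± 0.892 CPM (adjusted p = 2.787e-11), and *Dsc2* (desmocollin 2) fell from 89.7 ± 12 to 56.2 ± 9.84 CPM (log2 fold change -0.67, adjusted p = 0.003602). Another desmosome gene was lower. Of the 6, 1 (16.7%) was higher and 2 (33.3%) lower, against 15.5% and 14.1% of all genes. Without TMM scaling 2 were higher and 1 lower.

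Other fetal genes were read beside *Afp*. Of 14 fetal liver and oncofetal genes 4 were higher and 0 lower at 30 µg/kg, where 15.5% and 14.1% of all genes were, and 1 was higher at 10 µg/kg. The number higher at the top dose was 6 without TMM scaling and 2 when genes were kept by edgeR's own filter on low counts. *Dlk1*, a marker of fetal hepatoblasts, had 0 reads in all 5 vehicle mice and 2 to 55 reads per mouse at 30 µg/kg, where its mean of 1.61 CPM was at least 44.1-fold higher than the level that 3 reads over the vehicle group would give. The imprinted fetal genes *H19* (0.432 against 0.242 CPM, adjusted p = 0.4102) and *Igf2* (0.493 against 0.45 CPM, adjusted p = 0.7864) did not pass. Of 10 regulators of *Afp* and genes of the albumin family cluster, 0 were higher and 5 lower (1 and 3 without TMM scaling). The liver transcription factor *Cebpa* fell from 235 ± 41.3 to 126 ± 17.5 CPM (log2 fold change -0.90, adjusted p = 1.903e-05), *Zhx3* from 78.6 ± 7.52 to 51.7 ± 5.82 CPM (log2 fold change -0.61, adjusted p = 9.896e-05) and *Gc*, the vitamin D binding protein and a chromosome 5 neighbour of *Afp*, from 6930 ± 199 to 4800 ± 372 CPM (log2 fold change -0.53, adjusted p = 3.578e-08). Of the known repressors of *Afp* in adult liver, *Zhx2* was lower (14.1 against 11.6 CPM, log2 fold change -0.27, adjusted p = 0.03627) and *Zbtb20* did not pass (139 against 137 CPM, adjusted p = 0.9302). Without TMM scaling the median log2 fold change of all genes moved from 0.019 to 0.232, a shift close in size to the change of *Zhx2*.

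The Notch and Hippo pathways, which set the biliary fate and act upstream of *Sox9*, gave 7 higher and 3 lower genes of 22 (9 and 1 without TMM scaling), with a median log2 fold change of 0.42. Without vehicle replicate 2 the number higher was 4, and among all genes 15.5% were higher and 14.1% lower. The receptor *Notch1* rose 4.78-fold from 14.3 ± 3.10 to 68.2 ± 10.2 CPM (adjusted p = 2.179e-10), *Notch3* 1.88-fold (adjusted p = 0.0127) and the target *Heyl* 1.86-fold (adjusted p = 0.0431). *Hes1*, a direct Notch target, went from 11.8 to 29.3 CPM (log2 fold change 1.31, adjusted p = 0.00691). *Notch2*, the main Notch receptor of bile duct formation, was lower (42.6 against 29.2 CPM, log2 fold change -0.54, adjusted p = 9.381e-05), as was the DNA-binding partner *Rbpj* (11.5 against 8.08 CPM, log2 fold change -0.50, adjusted p = 0.000836). Endothelial cells express several genes of this list, and *Pecam1*, their adhesion molecule, rose 1.99-fold from 10.7 ± 2.11 to 21.1 ± 3.73 CPM (adjusted p = 5.232e-05). The part of these cells in the Notch result was not tested.

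Of 7 receptor genes for osteopontin, the product of *Spp1*, 3 were higher and 2 lower at 30 µg/kg (3 and 0 without TMM scaling). Of all genes, 15.5% were higher and 14.1% lower there. The integrin chains *Itga4* and *Itga9* rose 2.69-fold and 1.96-fold (adjusted p = 0.002795 and 5.643e-05), and *Itgb5* fell from 42.1 ± 3.88 to 29.7 ± 2.97 CPM (adjusted p = 0.0007552). *Itga4* is also carried by leukocytes. The 14 macrophage markers, which mark one kind of these, summed to 166 to 267 CPM in vehicle mice and 167 to 505 CPM at 30 µg/kg. Of these *Gpnmb* had the largest fold change that passed (from 0.134 ± 0.0884 to 17.8 ± 11.5 CPM, adjusted p = 3.771e-12). The Kupffer cell markers *Clec4f* (70.4 CPM in vehicle mice, adjusted p = 0.3586) and *Cd5l* (57 CPM, adjusted p = 0.3294) did not pass. As the 2 most abundant macrophage markers in vehicle mice, they weigh most in that sum. The 8 lymphocyte markers summed to 2.99 to 4.03 CPM and 4.12 to 8.36 CPM, with *Ms4a1* 3.33-fold higher (adjusted p = 0.008393). Their part in the integrin result was not tested.

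Markers of other epithelial tissues were low. Of 6 mesothelial markers 0 passed at 30 µg/kg (edgeR), where 15.5% of all genes were higher and 14.1% lower. The number higher was 1 by library size alone, in limma-voom, with only the vehicle and that dose fitted, and without vehicle replicate 2. The mesothelial markers summed to 4.02 to 10.5 CPM in vehicle mice and 5.96 to 10.8 CPM at 30 µg/kg. The 6 tested markers of pancreas and gallbladder summed to at most 1.11 CPM in vehicle mice and 0.451 CPM at 30 µg/kg. Their highest sum was 4.36 CPM, in a mouse at 0.3 µg/kg. Of these markers 1, *Cela2a*, was lower at 30 µg/kg (0.417 against 0.13 CPM) on a mean of 4.6 reads. That call was lost without vehicle replicate 2 or 3 and without replicate 3 or 4 of the 30 µg/kg group. The hepatocyte genes stood far above all of these, with *Alb* at 111000 ± 12400 CPM in vehicle mice and 106000 ± 20300 CPM at 30 µg/kg (adjusted p = 0.6502) and *Apoa1* 3.19-fold lower (from 6180 ± 846 to 1940 ± 542 CPM, adjusted p = 2.358e-07). The proliferation markers summed to 4.96 to 7.73 CPM in vehicle mice and 9.14 to 28.4 CPM at 30 µg/kg, and their highest sums were 37.9 CPM in a mouse at 0.01 µg/kg and 44.6 CPM in one at 0.03 µg/kg. At 30 µg/kg, *Top2a* was 6.23-fold and *Mki67* 4.55-fold higher (adjusted p = 0.0004636 and 0.003172), and *Birc5* did not pass (2.32 against 2.04 CPM in vehicle and treated mice, adjusted p = 0.6309).

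**Figure D4:**
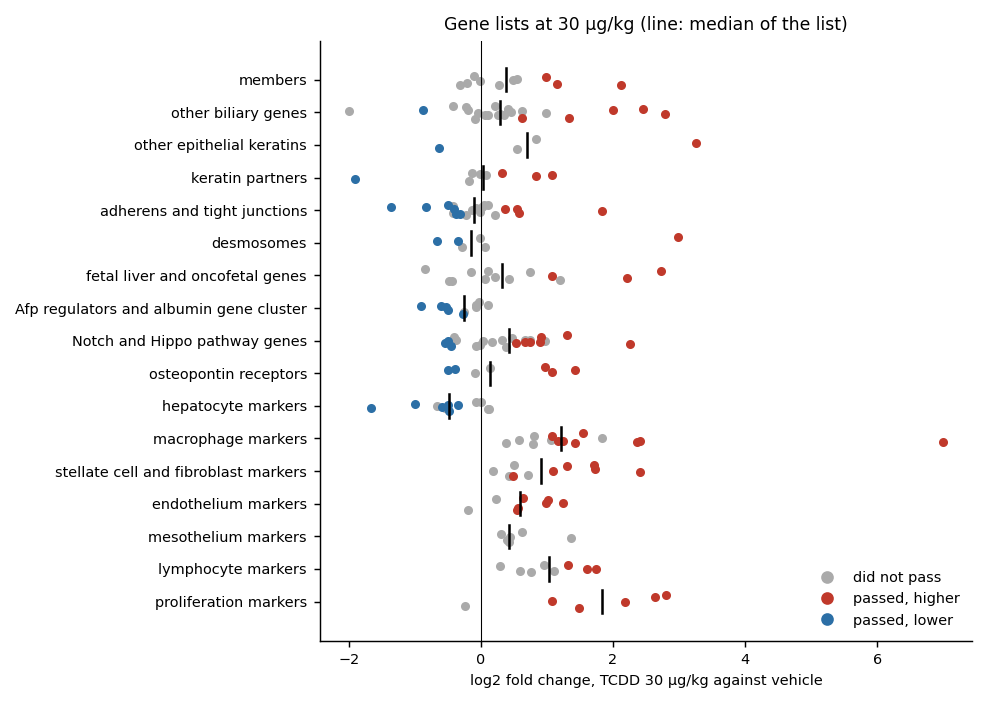
Log2 fold change at 30 µg/kg against the vehicle (x axis) of single genes (points) in the lists named on the y axis, with a black line at each list's median. Red points passed and were higher, blue points passed and were lower, and grey points did not pass. *Dlk1*, at 0 in all vehicle mice, counts in its list's median and is not drawn, and the AhR targets and the pancreas and gallbladder markers are left out. The 10 genes of interest have 3 red points and no blue one.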

How the data were processed

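Total RNA from 45 livers was sequenced as single 50-base reads. Per the labels and methods, the authors aligned reads to GRCm38 with Bowtie and TopHat 1.4.1 and deposited raw counts per Ensembl gene from HTSeq 0.6.1, with no normalization and without reads that map to several places. The strand setting is not given in the sources used here. Alignments outside genes (9.113% to 17.082% per library) and shared between genes (1.606% to 2.315%) were left out.

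Counts were fitted in edgeR 4.0.16 (R 4.3.3, TMM, quasi-likelihood test, genes with more than 4 reads in any sample, all mice in 1 fit), with Benjamini-Hochberg adjustment over all genes within each comparison. The study's SAS procedure was not repeated. Alternatives were DESeq2 1.42.0, limma-voom (limma 3.58.1), other scalings, filters and samples, and each mouse left out. Exact permutation tests of 5 against 5 mice used log2 CPM (prior count 2), and pairs of genes 100000 permutations within groups (numpy 2.4.6, scipy 1.17.1). On simulated counts for 30 µg/kg against the vehicle (17464 genes), edgeR recovered 87% of 2-fold and 100% of 4-fold changes with 8 false calls. All genes were simulated with the same dispersion, and only genes with at least 10 reads on average were changed. The rates therefore need not hold for genes of wider spread, such as *Krt23*, or of few reads, such as *Krt7*, *Krt19* and *Afp*.

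The genes and lists were chosen with earlier results of these data known. From each list beside the 10 genes, the genes named were taken from the 3 with the largest passing fold changes, at least 10 reads on average and no overlap between groups, and from the 2 most abundant of each set of markers. *Cftr*, *Aqp1*, *Krt80*, *Sqstm1*, *Ctnna1*, *Ctnnb1*, *H19*, *Igf2*, *Zhx2*, *Zbtb20*, *Hes1*, *Notch2* and *Rbpj* were named outside this rule, after their values were seen. Positions come from a GENCODE release for GRCm38 later than that counted on. Replicates are separate mice, numbered in accession order. A few genes of the lists are not reported here.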

Additional observations from a re-analysis of the deposited data

Results flagged for a closer look

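In each of 90 sets of 5 mice (10 genes in 9 groups), the highest or lowest mouse was compared with the others by its gap as a share of the range (Dixon's test, critical value 0.71), and 7 sets held a mouse that stood apart, where chance gives about 1 in 20. TCDD 0.01 µg/kg replicate 3 accounted for several of these, with *Cdh1* at 73.7 CPM against 25.5 to 37.1 CPM in the others, *Krt23* at 11 CPM against 0.71 to 3.21 CPM and *Spp1* at 36.2 CPM against 47.3 to 51.3 CPM. The same mouse was also the highest of its group in *Sox9* (5.67 CPM) and *Krt18* (213 CPM) and the lowest in *Epcam* (0.428 CPM). Its hepatocyte markers summed to 171000 CPM, within the 137000 to 174000 CPM of its group, its macrophage markers to 191 CPM (164 to 1070 CPM) and its endothelial markers to 114 CPM, the lowest of the group. Their part in these values was not tested. The mouse with the highest macrophage sum, 1070 CPM, was replicate 5.

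The remaining mice that stood apart were TCDD 0.1 µg/kg replicate 1 in *Sox9* (3.38 CPM against 2.27 to 2.43 CPM), TCDD 10 µg/kg replicate 5 in *Spp1* (42.0 CPM against 50.9 to 53.9 CPM), TCDD 0.3 µg/kg replicate 3 in *Krt7* (0.114 CPM, from 3 reads, against 0.487 to 0.623 CPM) and vehicle replicate 4 in *Krt23* (3.28 CPM against 3.64 to 3.70 CPM). The vehicle mice had 52 to 72 reads each on *Krt23*, so that the last gap rests on few reads.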

How the results depend on the processing

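At 30 µg/kg, 3 of the 10 genes were higher, except that 4 were by library size alone (*Krt8* added) and 2 without TCDD 30 µg/kg replicate 5 (*Afp* lost) or with a fold change of at least 2. At doses up to 3 µg/kg 0 genes passed under each alternative run there. At 10 µg/kg the number higher was 1, and 2 (*Krt23* and *Cdh1*) in DESeq2, by library size alone, with only the vehicle and that dose fitted, and without TCDD 0.01 µg/kg replicate 3, an alternative chosen after seeing the data. Leaving out single mice gave 0 to 2. Scaling by library size alone raised the genes that varied at any dose from 3 to 5 (*Krt7* and *Krt8* added, adjusted p = 0.02804 and 0.01331), cut the list genes lower at 30 µg/kg from 28 to 10, and turned the log2 fold changes of *Epcam* (0.006), *Spp1* (0.112) and *Krt18* (0.196). *Krt18* ranged from -0.114 to 0.038 when single mice were left out, with 0.038 without vehicle replicate 1 or TCDD 30 µg/kg replicate 5, 0.018 without vehicle replicate 5 and 0.017 without TCDD 30 µg/kg replicate 3. Steps between doses gave 5 calls at an unadjusted p, counted after seeing the data. Covarying pairs fell from 2 to 1 with only the vehicle and the doses up to 0.3 µg/kg, where fewer mice entered. The other causes were not tested.

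No paired analysis was made, because the methods describe mice assigned to the groups at random and no pairs. The labels carry no replicate numbers, and the numbers used here follow accession order. *Krt7*, *Krt19*, *Afp* and *Epcam* rest on few reads.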
